A study of Sus scrofa with 35 samples.

Results

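The 10 genes described here encode proteins that bring long-chain fatty acids into the muscle fibre and break them down in mitochondria. They are CD36, FABP3, ACSL1, SLC25A20, ACADVL, ACADL, ACADM, HADHA, HADHB and HADH. Their probes were found by name: each non-control probe whose gene name in the scanner files was one of these symbols, in upper or lower case, was taken. This gave 42 probes for 10 of the 11383 genes with a symbol on the array. Of the 42 probes, 41 were tested, which required that in 1 group or more at least 75% of the arrays read the probe well above background. The probe left out was a second probe of HADHB, which was above background on 1 of 35 arrays.

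Skeletal muscle burns fatty acids between meals and during sustained work. At the cell surface CD36 takes up long-chain fatty acids, and inside the fibre the binding protein FABP3 carries them through the cytosol. ACSL1 joins them to coenzyme A, and the carnitine shuttle, of which the carrier SLC25A20 is one step, moves the acyl groups across the inner mitochondrial membrane. Beta-oxidation then shortens the chain in repeated cycles. Each cycle starts with an acyl-CoA dehydrogenase (ACADVL for very long, ACADL for long and ACADM for medium chains). The trifunctional protein, made of HADHA and HADHB, or the soluble enzymes of the matrix, HADH among them, carry out the later steps.

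The arrays read RNA from the long muscle of the back (longissimus dorsi) of castrated male pigs of 3 genetic types. They were Creole pigs, Large White pigs and the F1 cross of these breeds. The thermoneutral (TN) pigs were slaughtered before the room was warmed, and the heat-stressed (HS) pigs after 4 or 5 days in the warm room. Each of the 6 combinations of type and temperature had 6 arrays, except the heat-stressed F1 pigs with 5, and each array held the RNA of 1 pig. Per the labels the room was at 24 °C in TN and at 30 °C in HS, but the protocol text and the study methods put the warm phase at 32 °C, and this disagreement was not settled. Per the study methods all pigs entered the climatic room at 11 weeks of age, came in blocks of 4 littermates (3 blocks a breed) and were fed freely, so that intake was not matched between temperatures. Littermates were treated as independent. Temperature cannot be told apart from slaughter day, age and pen in this design. The muscle was ground whole, so fewer fibres of a kind and less RNA per fibre cannot be told apart either.

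The share of probes read well above background ranged from 58.4% to 75.9% between arrays. The tissue label was borne out by the level of skeletal muscle genes: the mean of 8 measured markers was 18.91 ± 0.04 on TN arrays (SD, n = 18) and 18.84 ± 0.07 on HS arrays (SD, n = 17), on the log2 intensity scale used throughout. Of these 8 markers 1 was called, MYH2, which was lower in HS (-0.21, SE 0.06, limma adjusted p = 0.0144), and 7 had negative differences. Markers of some other cells and of fibre types also differed with temperature. Of 15 leukocyte genes tested, 7 were called higher in HS (LYZ, TYROBP, FCER1G, AIF1, CSF1R, CD74 and LAPTM5) and none lower. PTPRC was the 1 gene with a negative difference (-0.02, SE 0.07, adjusted p = 0.906), and CD3E was not called (0.18, SE 0.10, adjusted p = 0.225). The mean of the list was 9.88 ± 0.81 in TN (range 8.24 to 11.29) and 10.65 ± 0.57 in HS (range 9.72 to 11.72). Arrays were also brighter in HS before normalisation: the 75th percentile of the raw log2 intensity was 9.05 ± 0.17 in TN and 9.24 ± 0.24 in HS. Of 4 red cell genes 2 were lower in HS, among them HBB, the beta chain of haemoglobin (-1.21, SE 0.22, limma adjusted p = 0.000536). In all, 3 of the 4 had negative differences, and SLC4A1 had a higher mean that was not called (0.37, SE 0.17, adjusted p = 0.123). The list mean was 8.46 ± 0.27 in TN and 8.09 ± 0.30 in HS. Of 9 fast fibre genes 3 were lower, with a list mean of 17.89 ± 0.06 in TN and 17.73 ± 0.14 in HS. Of 8 slow fibre genes 1 was called, lower in HS, and all 8 had negative differences. The slow fibre mean was 16.74 ± 0.31 in TN and 16.62 ± 0.29 in HS. Endothelial markers were called for 1 of 8, which was lower in HS, and 7 of 8 had negative differences. Their mean was 10.59 ± 0.23 in TN and 10.41 ± 0.23 in HS. The part of leukocytes, red cells, fibre types and endothelium in the differences of the 10 genes was not tested. Adipocyte markers were called for 0 of 10 genes (mean 11.15 ± 0.36 in TN and 11.21 ± 0.21 in HS).

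To see whether the fatty acid genes differed between temperatures when the breeds were pooled, the temperatures were compared across the 35 arrays in a model with breed and temperature. The means of the genes were lower in HS, except that of ACADL. On the probe with the highest mean of each gene, ACSL1, ACADVL, FABP3, HADHB, SLC25A20, HADHA and ACADM fell, CD36 and HADH had lower means that did not pass the test, and ACADL had a higher mean that did not pass it. In total 7 of 10 genes fell and none rose, with a median difference of -0.22 log2 over the 10 genes. Over all 9380 genes with a symbol and a tested probe, 1723 or 18.4% were called (942 lower and 781 higher), with a median of -0.03. By probe, 20 of the 41 member probes were called (limma, adjusted p under 0.05), all of them lower in HS, and 35 of 41 had a negative difference. Among all 41517 probes tested 16% were called, 8.3% lower and 7.73% higher in HS, against 48.8% of the member probes. The 41 probes are not 41 independent measurements, since probes of 1 gene report on the same transcripts and 11 of them overlap another probe of their gene.

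The count depended on how arrays were scaled and on what the fit adjusted for. The leukocyte marker mean and the array brightness both differed between TN and HS. A fit with either of them therefore cannot tell its part apart from that of temperature. With the mean of the leukocyte markers on each array as a covariate, 2 of 41 probes were called and 0 of 10 genes, with a median difference over the genes of -0.10. That is 4.88% of the member probes, beside 6.21% of all probes in the same fit. With array brightness as a covariate, 2 probes and 1 gene (HADHB) were called, with a median of -0.15, so that 4.88% of the member probes stood beside 5.04% of all probes. With arrays centred on spike-in controls (synthetic RNAs put into every sample at set amounts), 5 probes were called, of which 4 were lower and 1 was higher, and 2 genes (ACSL1 and ACADVL), or 12.2% of the member probes beside 11.3% of all probes. Counted in both directions, the member probes were thus called about as often as all probes under these 3 settings. Of all 41517 probes, 1197 were called lower in HS with the leukocyte covariate, 761 with the brightness covariate and 627 with spike-in centring. Of the 41 member probes, 2, 2 and 4 were called lower, in the same order. Over all probes, 51.8% of the called ones were lower in HS as reported, 13.4% with spike-in centring and 72.8% with scaling to the 75th percentile. That last scaling gave calls for 26 member probes (63.4%, beside 22.4% of all probes). Under each of these 3 settings ACADL had a higher mean in HS and the other genes a lower one, except CD36 with the leukocyte covariate, at 0.02 (adjusted p = 0.894).

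**Figure D1:**
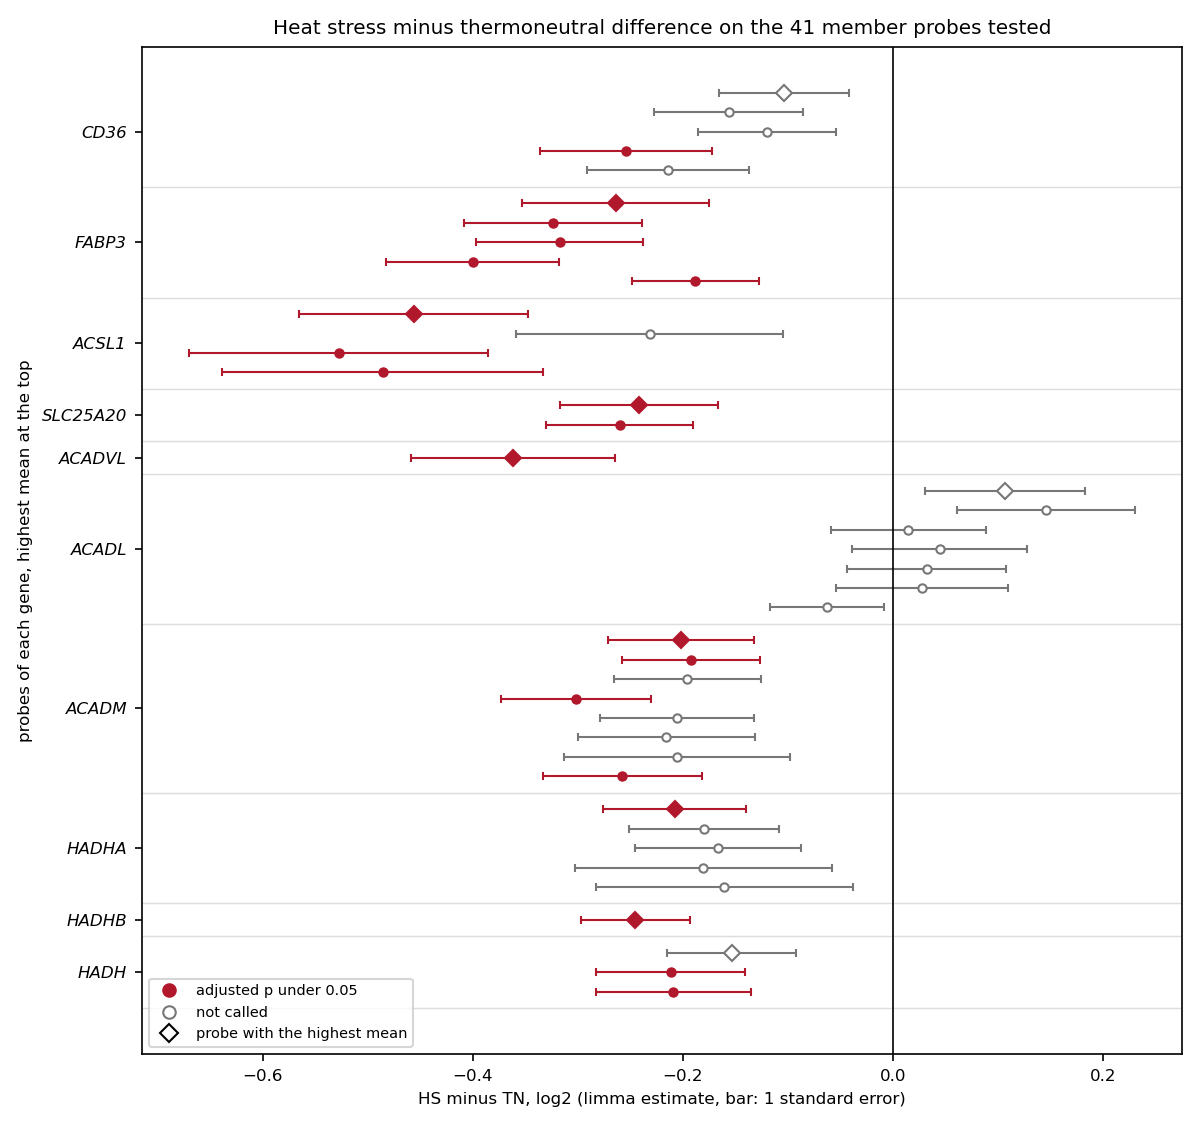
HS minus TN difference on the log2 scale (limma estimate with 1 standard error) for the 41 tested probes, grouped by gene, with the probe of the highest mean as a diamond and called probes filled. The 20 called probes all lie left of 0, the probes of ACSL1 reach -0.53, and the 7 probes of ACADL lie between -0.06 and 0.15.

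Uptake and binding came first in the chain. FABP3 is the main fatty acid binding protein of heart and red muscle. In Creole pigs it lay between 14.41 and 14.90 in TN (median 14.78) and between 14.16 and 14.76 in HS (median 14.47). In F1 pigs it lay between 14.68 and 15.13 in TN (median 14.78) and read 14.63, 14.80, 14.82, 14.59 and 14.09 in the 5 HS arrays. In Large White pigs it lay between 14.55 and 15.62 in TN (median 14.91) and between 14.29 and 15.16 in HS (median 14.59). The ranges overlapped in each breed, and the HS median was the lower one in each. Over all arrays FABP3 fell by 0.26 log2 (SE 0.09, limma adjusted p = 0.0389), which is 16.7% lower, and 13 of 17 HS arrays were under the TN mean of their breed. All 5 FABP3 probes were called lower, between -0.40 and -0.19, the latter on a probe with a mean of 6.41. The call on the probe with the highest mean was close to the threshold: leaving out 1 array at a time gave adjusted p-values from 0.0182 to 0.0619 and differences from -0.30 to -0.22. With the leukocyte covariate the difference was not smaller, at -0.31, but its standard error was 0.10 and the call was lost (adjusted p = 0.0617). It was also lost with the brightness covariate (-0.20, adjusted p = 0.224) and with spike-in centring (-0.23, adjusted p = 0.0837).

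CD36, the fatty acid translocase of the fibre membrane and of the capillary wall, is also found on macrophages and endothelium. It lay between 13.53 and 13.97 in Creole TN (median 13.91) and between 13.43 and 13.94 in Creole HS (median 13.66). In Large White it lay between 13.42 and 13.70 in TN (median 13.64) and between 13.14 and 13.66 in HS (median 13.51). In F1 the TN arrays ran from 13.11 to 13.82 (median 13.60) and the HS arrays read 13.53, 13.34, 13.68, 13.58 and 13.55, inside the TN range. The difference of -0.10 (SE 0.06, limma adjusted p = 0.255, 95% interval -0.23 to 0.02) did not pass the test, with 11 of 17 HS arrays under the TN mean of their breed. All 5 CD36 probes had negative differences, from -0.25 to -0.10, and 1 of them was called (adjusted p = 0.0307).

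ACSL1, the main acyl-CoA synthetase of muscle and fat, had the largest difference of the 10 genes. It lay between 13.04 and 13.72 in Creole TN (median 13.40) and between 12.40 and 13.34 in Creole HS (median 12.94). F1 pigs read between 12.76 and 13.83 in TN (median 13.59), and the HS arrays read 13.20, 12.94, 13.03, 13.05 and 12.93. In Large White it lay between 13.13 and 13.88 in TN (median 13.68) and between 12.34 and 13.41 in HS (median 13.18). The groups overlapped in each breed, but all 17 HS arrays were under the TN mean of their breed, and 11 of 18 TN arrays were above the highest HS array. ACSL1 fell by 0.46 log2 (SE 0.11, adjusted p = 0.00479), or 27.1%. Of its 4 probes 3 were called, 1 of them with a mean of only 6.99, and the 4 differences ran from -0.53 to -0.23. The call held without each array in turn (adjusted p 0.00133 to 0.00908), and was lost with the brightness covariate (-0.29, adjusted p = 0.0857) and with the leukocyte covariate (-0.23, adjusted p = 0.161).

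SLC25A20 exchanges acylcarnitine for carnitine across the inner membrane. It lay between 11.43 and 11.98 in Creole TN and between 11.37 and 11.93 in Creole HS, and between 11.65 and 12.03 in Large White TN and 11.17 and 12.01 in Large White HS. In F1 the TN arrays ran from 11.35 to 12.09 (median 11.86), and the HS arrays read 11.58, 11.31, 11.32, 11.54 and 11.48, all under that median. It fell by 0.24 log2 (SE 0.08, adjusted p = 0.0261), with 14 of 17 HS arrays under the TN mean of their breed. Its second probe, with a mean of 7.31 beside 11.66 for the first, gave -0.26 (adjusted p = 0.0109). The call on the first probe held without each array in turn. It was lost with median scaling (-0.19, adjusted p = 0.0601), spike-in centring (-0.11, adjusted p = 0.397), the brightness covariate (-0.17, adjusted p = 0.207) and the leukocyte covariate (-0.13, adjusted p = 0.346).

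**Figure D2:**
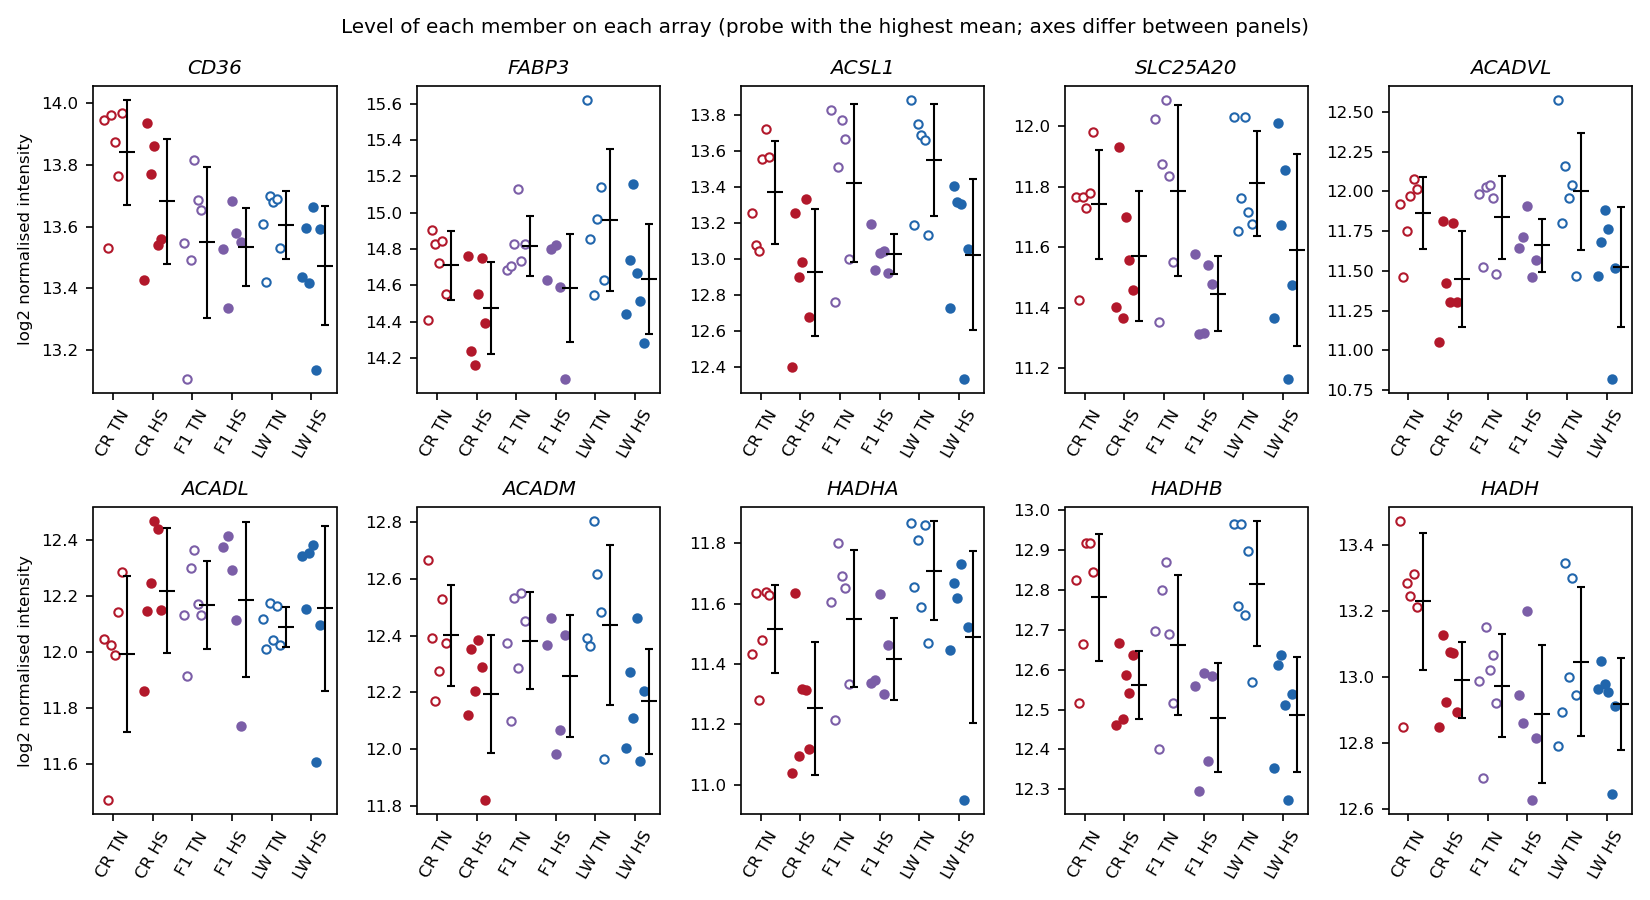
Log2 normalised intensity of each gene on each of the 35 arrays (open: TN, filled: HS; CR Creole, LW Large White), with the group mean and SD (n = 6, and 5 in F1 HS) as a black bar; axes differ between panels. The HS points of ACSL1 and HADHB sit low in each breed, ACADL is the panel where HS sits higher, and 1 Large White HS array is lowest for ACADVL at 10.82.

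Of the acyl-CoA dehydrogenases, ACADVL and ACADM were called lower in HS and ACADL was not called. ACADVL, which takes the longest chains, was measured by 1 probe, shown here because no second probe checks it.
ACADVL probe O10385: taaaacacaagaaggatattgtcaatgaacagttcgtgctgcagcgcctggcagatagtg
It lay between 11.46 and 12.08 in Creole TN (median 11.94) and between 11.05 and 11.81 in Creole HS (median 11.36). In Large White it lay between 11.47 and 12.57 in TN and between 10.82 and 11.88 in HS (median 11.60). F1 pigs read between 11.48 and 12.04 in TN (median 11.97), and the HS arrays read 11.64, 11.72, 11.91, 11.46 and 11.57. All 3 breeds overlapped, with 12 of 18 TN arrays above the highest HS array and 16 of 17 HS arrays under the TN mean of their breed. ACADVL fell by 0.36 log2 (SE 0.10, adjusted p = 0.0108), or 22.2%. The call held without each array in turn and under the spike-in centring (-0.23), and was lost with the leukocyte covariate (-0.16, adjusted p = 0.294) and the brightness covariate (-0.17, adjusted p = 0.19).

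ACADM, which handles medium chains, had the most probes. On the probe with the highest mean it lay between 12.17 and 12.67 in Creole TN and between 11.82 and 12.39 in Creole HS, and between 11.97 and 12.80 in Large White TN and 11.96 and 12.46 in Large White HS. In F1 it lay between 12.10 and 12.55 in TN, and the HS arrays read 12.37, 12.46, 11.98, 12.07 and 12.40, across the same range. It fell by 0.20 log2 (SE 0.07, adjusted p = 0.0435), with 14 of 17 HS arrays under the TN mean of their breed. All 8 probes had negative differences and 4 of them were called. Of all the genes called, this was the one nearest the threshold: leaving out 1 array at a time gave adjusted p-values from 0.0142 to 0.0767, above 0.05 for 18 of the 35 arrays, with differences from -0.23 to -0.18. The difference shrank to -0.04 with the leukocyte covariate (adjusted p = 0.712), -0.09 with spike-in centring (adjusted p = 0.551) and -0.14 with the brightness covariate (adjusted p = 0.286).

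The 8 ACADM probes hold 2 overlapping pairs. One pair is printed here because both of its probes were called, at -0.19 (adjusted p = 0.0423) and -0.26 (adjusted p = 0.0185), and capitals mark the stretch they share.
ACADM probe A_72_P627490: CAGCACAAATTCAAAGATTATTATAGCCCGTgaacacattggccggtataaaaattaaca
ACADM probe A_72_P578028: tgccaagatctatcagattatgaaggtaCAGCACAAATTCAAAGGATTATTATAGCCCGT
The shared stretch is 31 bases long in the first and 32 in the second, with 31 matching bases and 1 base more in the second. These 2 calls are therefore not independent of each other.

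ACADL, the long-chain dehydrogenase, was not called, and its mean was higher in HS. It lay between 11.47 and 12.29 in Creole TN (median 12.04) and between 11.86 and 12.47 in Creole HS (median 12.20). In Large White it lay between 12.01 and 12.17 in TN (median 12.08) and between 11.61 and 12.38 in HS (median 12.25). In F1 it lay between 11.91 and 12.37 in TN, and the HS arrays read 12.38, 12.42, 12.29, 12.12 and 11.74, to both sides of it. The HS mean was 0.11 log2 higher (SE 0.08, limma adjusted p = 0.359, 95% interval -0.05 to 0.26), which did not pass the test, and 13 of 17 HS arrays were above the TN mean of their breed. Of the 7 ACADL probes 6 had positive differences and 0 were called, and 1 had a negative difference of -0.06. The mean level of that probe was 6.88, beside 10.15 to 12.13 for the other 6. With the mean of its 7 probes the gene read 0.04 (SE 0.07, limma adjusted p = 0.713).

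The ACADL probe with the negative difference runs on the opposite strand of another ACADL probe, which is why both are shown. Capitals mark the stretch in which one is the reverse complement of the other.
ACADL probe A_72_P672943: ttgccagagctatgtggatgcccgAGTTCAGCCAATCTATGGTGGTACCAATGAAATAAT
ACADL probe O13893: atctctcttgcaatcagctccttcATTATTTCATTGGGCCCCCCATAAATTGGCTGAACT
Over 36 bases, 32 matched after the second was reverse-complemented and 4 did not (C37T, T43G, T46G and A47C, with the first probe's base first and positions counted from 1 at its 5′ end). The first probe gave 0.15 (SE 0.08) and the second -0.06 (SE 0.05), and neither was called. The other 2 overlapping ACADL pairs lie on 1 strand, so 5 of the 7 probes share sequence with another.

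The trifunctional protein joins HADHA, which carries the hydratase and hydroxyacyl dehydrogenase steps, to HADHB, the thiolase. HADHB lay between 12.52 and 12.92 in Creole TN (median 12.84) and between 12.46 and 12.67 in Creole HS (median 12.56). F1 pigs read between 12.40 and 12.87 in TN (median 12.69), and the HS arrays read 12.56, 12.29, 12.59, 12.37 and 12.58. In Large White it lay between 12.57 and 12.97 in TN (median 12.83) and between 12.27 and 12.64 in HS (median 12.53). All 17 HS arrays were under the TN mean of their breed and 13 of 18 TN arrays were above the highest HS array, although the ranges overlapped in each breed. HADHB fell by 0.25 log2 (SE 0.05, adjusted p = 0.00182), or 15.6%, on its 1 tested probe. With the brightness covariate it was still called (-0.17, adjusted p = 0.035). With the leukocyte covariate it read -0.15 (adjusted p = 0.0659) and with spike-in centring -0.14 (adjusted p = 0.124), both above the threshold of 0.05.

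HADHA lay between 11.28 and 11.64 in Creole TN and between 11.04 and 11.64 in Creole HS, and between 11.47 and 11.87 in Large White TN and 10.95 and 11.73 in Large White HS. In F1 it lay between 11.21 and 11.80 in TN (median 11.63), and the HS arrays read 11.34, 11.35, 11.63, 11.30 and 11.46. It fell by 0.21 log2 (SE 0.07, adjusted p = 0.0339), with 14 of 17 HS arrays under the TN mean of their breed. The other 4 HADHA probes ran from -0.18 to -0.16 and 0 of them were called. Leaving out 1 array at a time gave adjusted p-values from 0.0133 to 0.058, and with the mean of its 5 probes the gene read -0.18 (adjusted p = 0.0962). It read -0.07 with spike-in centring (adjusted p = 0.536), -0.08 with the leukocyte covariate (adjusted p = 0.485) and -0.10 with the brightness covariate (adjusted p = 0.374).

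HADH, the hydroxyacyl-CoA dehydrogenase for shorter chains, lay between 12.85 and 13.47 in Creole TN (median 13.27) and between 12.85 and 13.13 in Creole HS (median 13.00). In F1 it lay between 12.69 and 13.15 in TN, and the HS arrays read 12.94, 12.86, 13.20, 12.62 and 12.81. In Large White it lay between 12.79 and 13.35 in TN and between 12.65 and 13.05 in HS. On this probe the difference of -0.15 (SE 0.06, adjusted p = 0.0804) did not pass the test, though 15 of 17 HS arrays were under the TN mean of their breed. Its other 2 probes were both called, at -0.21 each (adjusted p = 0.0385 and 0.0482), so the call for HADH depends on the probe.

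Next, the difference was read within each of the 5 slides, which were also the scans. Slides 1 to 4 held 4 TN and 4 HS arrays each, and slide 5 held 2 TN and 1 HS. On slide 5 the TN arrays were Large White and the HS array Creole, so temperature cannot be told apart from breed there. Slide differences were plain means that took no account of breed, and the breeds were not evenly mixed on the slides. Among slides 1 to 4, FABP3, HADHB and ACADM were lower in HS on 4 of 4, and CD36, ACSL1, SLC25A20, ACADVL, HADHA and HADH on 3 of 4. For these 6 genes the exception was the same slide, slide 2, where HADHA was 0.23 higher in HS, ACSL1 0.11 higher and ACADVL 0.06 higher. On slide 3 ACSL1 was 0.79 lower and ACADVL 0.71 lower. ACADL was lower in HS on 1 of these 4 slides, slide 3, at -0.16, and higher on the others. With slide as a block in the fit, 24 of 41 probes were called (58.5%, beside 20.1% of all probes). With the 8 arrays of slide 2 left out 29 were (70.7%, beside 22.2%), all lower in HS in both cases. Leaving out slide 2 was chosen after seeing the data, so its higher count is no added support.

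**Figure D3:**
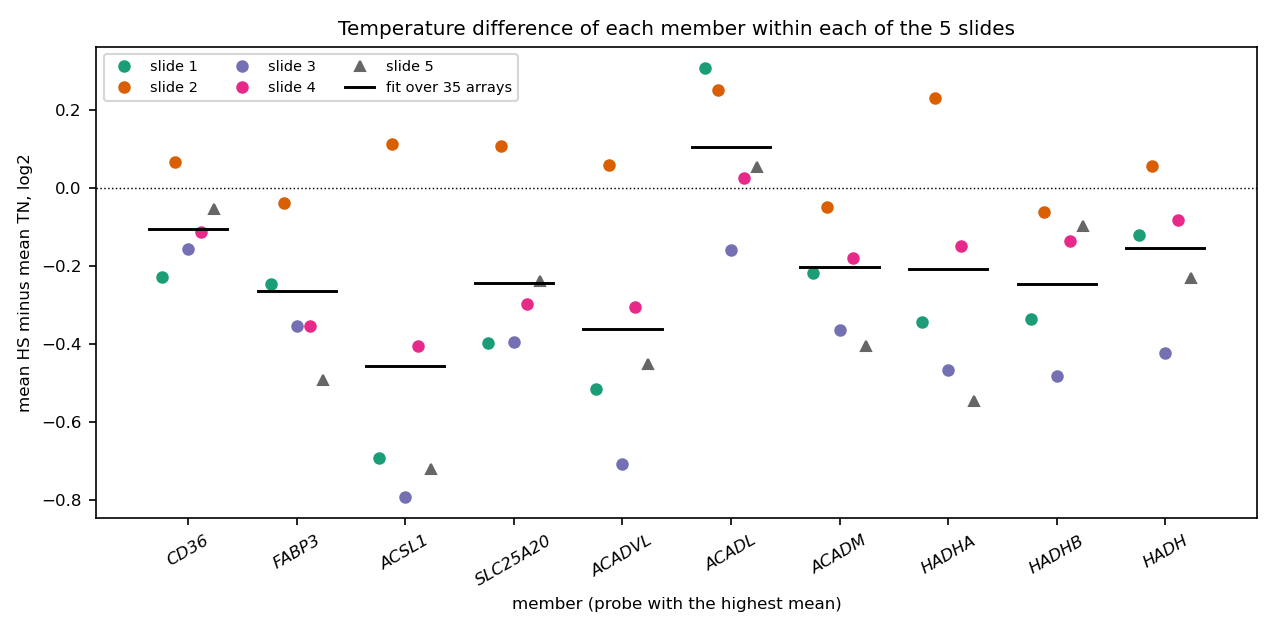
Mean HS minus mean TN on the log2 scale for each gene within each slide (points) and the fit over 35 arrays (bar). The triangle is slide 5 with 3 arrays, 2 of Large White TN and 1 of Creole HS, so breed and temperature cannot be told apart there. Slide 2 lies above 0 for 6 of the 9 genes whose fitted difference is negative, and no point of FABP3, ACADM or HADHB is above 0.

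The effect of temperature was then taken within each breed, in a model with 1 mean per group. In Creole pigs the 10 differences ran from -0.44 (ACSL1) to 0.23 (ACADL), in F1 pigs from -0.39 (ACSL1) to 0.02 (ACADL), and in Large White pigs from -0.52 (ACSL1) to 0.07 (ACADL). In each breed 9 of 10 genes were lower in HS. No member probe was called in Creole, where 1.91% of all probes were called, in F1, where 0.00482% were, or in Large White, where again 0.00482% were. At an unadjusted p under 0.05 the limma fits gave 19 member probes in Creole (46.3%, beside 21.5% of all probes), 3 in F1 (7.32%, beside 8.3%) and 15 in Large White (36.6%, beside 16.6%). The smallest adjusted p among the 10 genes was 0.088, for HADHB in Large White (-0.33, SE 0.09). ACADVL read -0.42 (SE 0.17) in Creole, -0.17 (SE 0.17) in F1 and -0.48 (SE 0.17) in Large White.

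Whether these differences differed between breeds was tested with a moderated F-test of the interaction. No member probe was called, and none had an unadjusted p under 0.05, as 3.84% of all probes did (smallest adjusted p 0.963 among the 41 probes). Over the whole array 0% of probes were called (0 of 41517). The probes nearest to a difference were a pair of HADHA probes, at unadjusted p = 0.0633 and 0.052 in the limma fit. With 5 or 6 arrays in a group, the intervals of the differences within a breed were wide, reaching from -0.91 to 0.33 log2 in Large White and from -0.80 to 0.30 in F1 over the 10 genes.

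Breed itself was compared in the additive model. Between Creole and Large White pigs 2 of 41 member probes were called, against 3.64% of all probes, and 0 of 10 genes were called on the probe with the highest mean. The largest differences were those of CD36 and HADHA. CD36 ran from 13.43 to 13.97 in the 12 Creole arrays (median 13.81) and from 13.14 to 13.70 in the 12 Large White arrays (median 13.59). It was 0.22 log2 higher in Creole (SE 0.07, adjusted p = 0.0937, 95% interval 0.07 to 0.37), and the ranges overlapped. HADHA was 0.21 lower in Creole (SE 0.08, adjusted p = 0.16), a difference that passed the test under 4 alternatives, and FABP3 0.20 lower (SE 0.11, adjusted p = 0.368). The other 7 genes lay between -0.14 (ACSL1) and 0.13 (HADH), and the 95% intervals of the 10 genes reached from -0.42 to 0.37.

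The 2 probes called between Creole and Large White belong to HADHA and overlap, which is why they are printed beside the HADHA probe of the highest mean. Capitals mark the stretch the first pair shares.
HADHA probe A_72_P736892: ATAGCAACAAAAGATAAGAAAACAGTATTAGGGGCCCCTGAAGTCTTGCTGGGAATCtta
HADHA probe A_72_P092111: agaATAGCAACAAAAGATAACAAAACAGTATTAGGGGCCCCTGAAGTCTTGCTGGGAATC
HADHA probe A_72_P223852: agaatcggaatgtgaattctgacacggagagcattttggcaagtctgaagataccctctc
The pair shares 57 bases with 1 difference, G18C, with the base of the first probe first and positions counted from 1 at its 5′ end. The first read 8.21 ± 0.32 in Creole TN and 8.05 ± 0.46 in Creole HS, 8.29 ± 0.32 in F1 TN and 8.46 ± 0.19 in F1 HS, and 8.93 ± 0.45 in Large White TN and 8.41 ± 0.29 in Large White HS (SD, n = 6, and 5 in F1 HS). It was 0.54 lower in Creole (SE 0.15, limma adjusted p = 0.0316), and the second was 0.52 lower (SE 0.15, adjusted p = 0.039). The 3 other HADHA probes read between -0.21 and -0.13 and were not called. Since the called pair shares nearly all its bases, the 2 calls rest on 1 stretch of the transcript. Both calls were lost on the TN arrays alone (0 of 41 member probes), where 0.53% of all probes were called, beside 3.64% over both temperatures. With fewer arrays in that fit, the loss cannot show that the difference was absent. Single arrays moved the count of member probes between 0 and 3.

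Against both parents the F1 pigs gave no call. Between F1 and Large White 0 of 41 member probes were called (0.525% of all probes were), with 3 at an unadjusted p under 0.05 in limma, and between F1 and Creole 0 of 41 (0.477% of all probes), again with 3. These 3 are 7.32% of the member probes, beside 10.5% of all probes against Large White and 8.88% against Creole. For CD36 the F1 pigs, from 13.11 to 13.82 (median 13.55), lay next to Large White at -0.001 (SE 0.08), and 0.22 under Creole (SE 0.08, adjusted p = 0.244). For the 10 genes the 95% intervals reached from -0.34 to 0.25 against Large White and from -0.38 to 0.35 against Creole.

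The members also moved together between pigs of 1 group. After removal of the 6 group means, the 45 pairs of genes had Pearson correlations over the 35 arrays from -0.11 to 0.87 (median 0.52), and 42 pairs were above 0. All pairs share the same arrays and their normalisation, so this is a description. ACSL1 went most closely with ACADVL (r = 0.87, Spearman 0.85) and with SLC25A20 (r = 0.81, Spearman 0.79). FABP3 stood apart, with a median correlation of 0.18 with the other 9 genes and slightly negative values with CD36, ACADM and HADH. The genes outside the 10 most like their mean profile were COL15A1 (Pearson 0.88 and Spearman 0.81 over 35 arrays, and Pearson 0.80 without the 2 arrays farthest from the median), CLSTN1 (0.87, 0.84 and 0.82), FXR2 (0.87, 0.77 and 0.80), NDUFS3 (0.86, 0.78 and 0.80) and DYRK1B (0.85, 0.80 and 0.80).

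**Figure D4:**
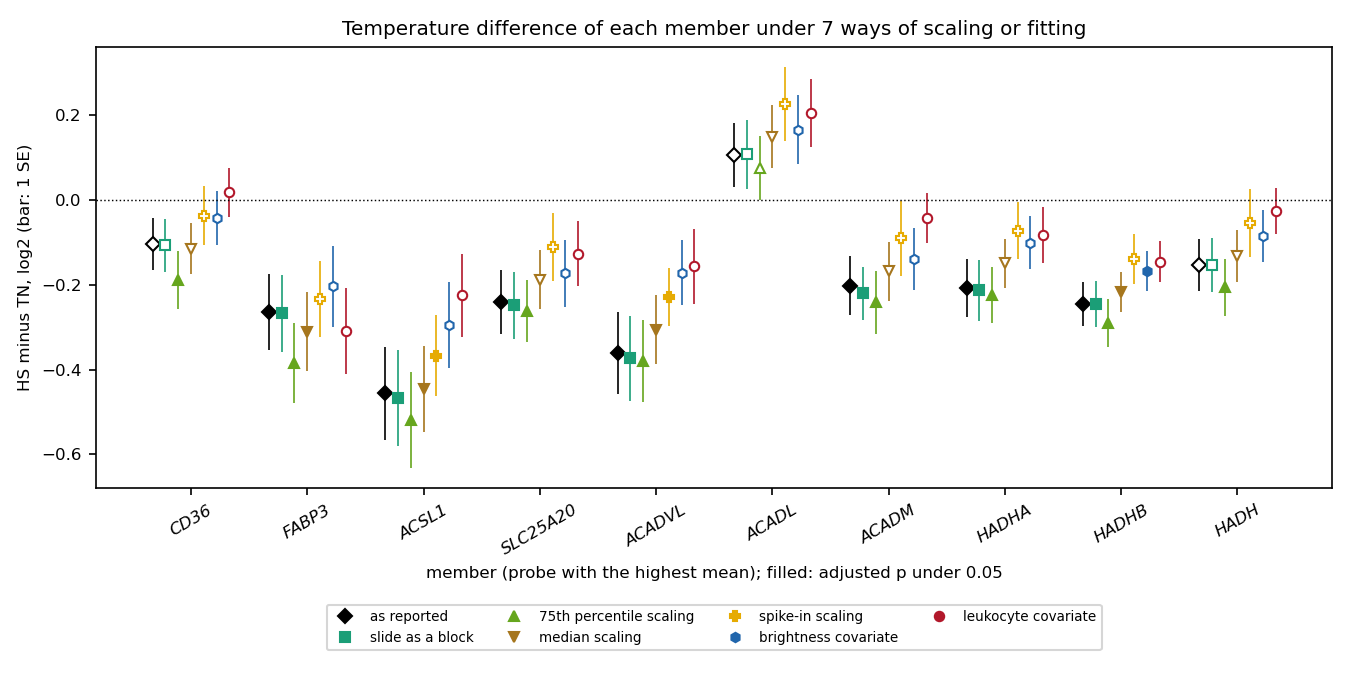
HS minus TN difference on the log2 scale (1 SE) for each gene under 7 ways of scaling or fitting, filled where the limma adjusted p is under 0.05. As reported 7 genes are filled, against 0 with the leukocyte covariate and 1 with the brightness covariate, and ACADL lies above 0 throughout.

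To place the 10 genes among other genes of fuel use, 81 further genes of fatty acid handling were listed, of which 71 had a tested probe. Of these 15 were called with temperature, all lower in HS, which is 21.1%. Of all 9380 genes 18.4% were called, counting both directions, and 942 were called lower. Of the 71 genes 54 had a negative difference, and their median was -0.12, beside -0.22 for the 10 members and -0.03 for all genes. The uptake, activation and carnitine shuttle list had 3 of 15 genes lower, mitochondrial beta-oxidation and electron transfer 3 of 16, peroxisomal beta-oxidation 1 of 10, triglyceride storage and breakdown 1 of 9, ketone use 1 of 3 and regulators 6 of 18. The TCA cycle, which burns the acetyl groups that beta-oxidation yields, had 12 of 15 genes lower (median -0.26). Glycolysis, the use of glucose, had 9 of 13 lower (median -0.23).

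Of the 15, the 5 with the largest differences were PDK4, ANGPTL4, UCP3, CPT1B and PNPLA2. PDK4, the kinase that turns off pyruvate dehydrogenase and so spares glucose, read 14.11 ± 1.69 in TN (SD, n = 18) and 12.20 ± 1.53 in HS (SD, n = 17), a difference of -1.92 (SE 0.52, limma adjusted p = 0.0115). ANGPTL4, an inhibitor of lipoprotein lipase, differed by -1.07 (SE 0.32, adjusted p = 0.0206), and UCP3, an uncoupling protein of muscle mitochondria, by -0.96 (SE 0.28, adjusted p = 0.0196). CPT1B, the muscle form of the enzyme that opens the carnitine shuttle, fell by 0.43 (SE 0.13, adjusted p = 0.0212), and PNPLA2, the lipase that starts the breakdown of stored triglyceride, by 0.42 (SE 0.08, adjusted p = 0.000999). PNPLA2 was under the TN mean of its breed on 17 of 17 HS arrays, and the other 4 genes on 15 of 17 each.

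Genes next to the members in the pathway did not all follow. CPT2, which closes the carnitine shuttle, read -0.17 (SE 0.08, adjusted p = 0.161). ETFDH, which hands the electrons of beta-oxidation to the respiratory chain, read -0.15 (SE 0.10, adjusted p = 0.336), and ACAA2, the matrix thiolase, -0.11 (SE 0.08, adjusted p = 0.382). None of the 3 passed the test.

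**Figure D5:**
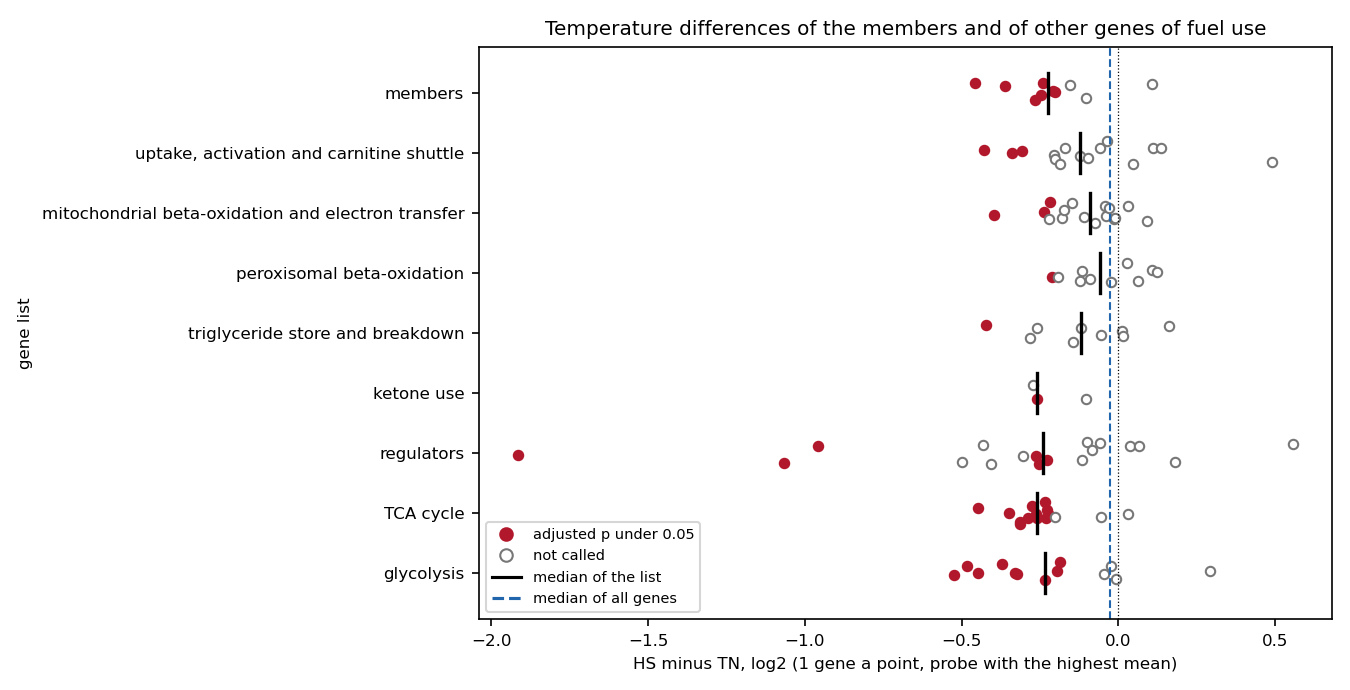
HS minus TN difference on the log2 scale for 1 probe a gene (filled: adjusted p under 0.05) in the 10 members and 8 other lists, with list medians (bars) and the median of all genes (dashed, -0.03). The members' median of -0.22 sits near those of glycolysis (-0.23) and the TCA cycle (-0.26), and PDK4 is the point at -1.92.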

How the data were processed

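RNA of 35 pigs was hybridised to 1-colour Agilent arrays, 1 array a pig, on 5 slides. The authors deposited the scanner output of Agilent Feature Extraction 10.10.1.1, whose median pixel intensity per spot is on a linear scale, and a table of normalised log2 values, also deposited, which served as an alternative.

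No background was subtracted, and the log2 median intensities of non-control spots were brought to a common distribution (quantile normalisation). Of 60306 spots, 105 with outlier flags on an array were left out, 0 were saturated, and the spots of 1 repeated probe were averaged. A probe was kept if, in 1 group or more, at least 75% of the arrays read it well above background, which gave 41517 of 60305. The number of arrays limits the precision.

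Linear models were fitted with limma 3.58.1 (R 4.3.3) over all kept probes: breed plus temperature for the pooled contrasts, and 1 mean per group for contrasts within a breed and for the interaction. P-values were adjusted by the Benjamini-Hochberg method over all 41517 probes, with a threshold of 0.05. For each gene the tested probe of highest mean intensity was described and the others were counted. Outside the 10 members, the genes named were those of the pathway list with the 5 largest called differences, neighbouring steps of the pathway, and the 5 genes most like the mean of the members after removal of group means. Likeness and pairs were computed over the 35 arrays. The fits were tested on simulated data drawn independently for each probe and array. That test cannot show the effect of differences shared within an array or a litter. Figures were drawn with matplotlib 3.10.9 (python 3.11.15).

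Groups came from the sample labels. Nothing in the labels gives pen, slaughter day or parents, so these were not in the model. The study's own model held them as random terms. The p-values here take no account of pigs that shared a pen, slaughter day or parent, and can be too small. The members and lists were chosen with earlier results of these data known. Alternatives were scaling to the 75th percentile, the median or 6 spike-in controls, normexp background correction with an offset of 50, the processed signal, no filter, the deposited table, slide as a block, array weights, brightness or leukocyte covariates, the mean over a gene's probes, TN arrays only, and leaving out each array. Leaving out the 8 arrays of slide 2 was chosen after seeing the data.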

Additional observations from a re-analysis of the deposited data

Results flagged for a closer look

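In 60 groups of 5 or 6 arrays (10 genes in 6 groups), 5 held an array far from the others of its group, by the gap to its nearest neighbour over the range of the group. Chance gives about 1 in 20 groups. FABP3 read 15.13 in F1 TN replicate 4, where the next highest was 14.83. ACADL read 11.47 in Creole TN replicate 2, where the next lowest was 11.99. The other 3 were low values of 1 array, Large White HS replicate 5: HADH at 12.65 (next 12.91), HADHA at 10.95 (next 11.45) and ACADL at 11.61 (next 12.1). That array also had the highest leukocyte marker mean (11.72), the highest brightness (9.62) and the lowest slow fibre marker mean (15.92) of the 35 arrays, and their part in its values was not tested. Without it 13 member probes were called between temperatures, and ACSL1 differed by -0.41, ACADVL by -0.31 and HADHB by -0.23, all 3 still called.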

How the results depend on the processing

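All called member probes were lower in HS under each alternative except spike-in centring. The shares of all probes given here count calls in both directions. Of the 41, 20 were called as reported (48.8%, beside 16% of all probes) and 12 with median scaling (29.3%, beside 16%). Spike-in centring gave 5, 1 of them higher (12.2%, beside 11.3%). The brightness covariate gave 2 (4.88%, beside 5.04%), and so did the leukocyte covariate (4.88%, beside 6.21%). The other alternatives gave 15 to 29, or 36.6% to 70.7% of the member probes, beside 9.67% to 22.4% of all probes. Over all probes 6654 were called as reported, 2092 with the brightness covariate and 2578 with the leukocyte covariate. Leaving out 1 array gave 13 to 27 member probes, with 13 without Creole HS replicate 3, Large White HS replicate 5 or Large White TN replicate 5. ACSL1, HADHB, ACADVL and SLC25A20 stayed called without each array. FABP3 was lost without Creole HS replicates 2, 3 or 6, Creole TN 2 or 5, F1 HS 5, F1 TN 4, Large White HS 1, 5 or 6, or Large White TN 1 or 5 (adjusted p 0.0182 to 0.0619 over the 35). HADHA was lost without Creole HS 1, 3 or 6, Creole TN 5 or 6, F1 TN 3, Large White HS 5, or Large White TN 3 or 5 (0.0133 to 0.058). ACADM was lost without 18 arrays (0.0142 to 0.0767): Creole HS 1, 3 or 6, Creole TN 1, 5 or 6, F1 HS 3 or 4, F1 TN 3, 5 or 6, Large White HS 1, 3, 5 or 6, or Large White TN 3, 4 or 5. HADH was gained without Creole TN 2, F1 HS 3, F1 TN 2 or Large White TN 1 (0.0372 to 0.135), and with scaling to the 75th percentile (adjusted p = 0.0288), the processed signal (0.0217), array weights (0.0183), the mean over probes (0.0406) or without slide 2 (0.0178). CD36 was gained with the first 2 of these (0.0439 and 0.0457). CD36 read 0.018 between temperatures with the leukocyte covariate.

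Between Creole and Large White, 2 member probes were called as reported, beside 3.64% of all probes. With scaling to the 75th percentile, normexp, the processed signal or no filter 1 was, beside 2.17% to 3.78% of all probes. On TN arrays only 0 were, beside 0.53%, and without slide 2 also 0, beside 1.91%. Leaving out 1 array gave 0 to 3: 0 without Creole TN 3, 5 or 6, Creole HS 3, 5 or 6, Large White TN 1 or 5, or Large White HS 3, and 1 without Large White TN 2 or 6. CD36 was called without Creole HS 1 (0.25, adjusted p = 0.048) or with array weights (0.22, 0.0444). HADHA was called without Large White HS 5 (-0.27, adjusted p = 0.0374), with median scaling (-0.26, 0.0264), the brightness covariate (-0.24, 0.0386), the leukocyte covariate (-0.25, 0.0269) or the mean over probes (-0.32, 0.0382). Differences near 0 changed sign: HADHB read -0.039 with median scaling, -0.067 with spike-in centring, -0.0085 with the leukocyte covariate and -0.034 on TN arrays, and without slide 2 ACADM read 0.016 and ACADL 0.011. Leaving out 1 array they ran from -0.0041 to 0.046 for HADHB, -0.045 to 0.033 for ACADM and -0.070 to 0.038 for ACADL. Between F1 and Large White 1 probe was called with spike-in centring, and leaving out 1 array gave 0 there and between F1 and Creole. Within Creole 2 were called without slide 2, and 0 to 2 without 1 array (2 without Creole HS 2, 1 without Large White TN 1 or Large White HS 5). Within Large White 0 to 3 were called (3 without Large White TN 6), and within F1 and for the interaction 0. The causes were not tested. No paired analysis was possible because the replicate numbers follow accession order and the labels do not give litters.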
